A study of Homo sapiens with 8 samples.

Results

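The genes described here encode the proteins of the mitochondrial ribosome that carry MRPL (large subunit) or MRPS (small subunit) symbols. They were found by symbol, as every probe set whose platform symbol began with MRPL or MRPS followed by a digit, with pseudogenes to be left out. This gave 74 probe sets of 21448, 1 for each of 74 genes among 17687 named genes, of which 47 were named for the large and 27 for the small subunit. The rule met 0 pseudogenes. The cells were CCRF-CEM, an established line of human T-cell acute lymphoblastic leukaemia, and each array holds the RNA of one bulk sample. A group of 4 samples was left untreated, and a group of 4 had first been exposed for 1 h to 1 µM OICR-9429, a small molecule that binds WDR5 at the site where WDR5 contacts MLL-family histone methyltransferases. All 8 samples then spent 1 h embedded in bovine type I collagen at 1.7 mg/mL, so no sample without collagen was compared. The labels name no solvent for the untreated cells, call the samples biological replicates 1 to 4 of each group, and do not say whether a number stands for a passage, a day or a thaw. The p-values therefore describe how these 8 arrays vary, which may be technical variation.

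Mitochondria keep a small genome whose messages are translated inside the organelle by a ribosome of their own. Its ribosomal RNAs come from mitochondrial DNA, but all of its proteins are encoded in the nucleus, made in the cytosol and imported. The small subunit reads the message and holds the decoding centre, and the large subunit joins amino acids and releases the chain into the inner membrane, where the products become core subunits of the oxidative phosphorylation complexes. Part of the proteins descend from bacterial ribosomal proteins, and others were added during mitochondrial evolution. A fixed list following that split counted 45 of the members as having a bacterial counterpart and the other 29 as not. MRPS18A and MRPS18B, which are relatives of bacterial S18, were counted among the 29, and MRPS18C among the 45.

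Values are log2 expression per probe set, as deposited. Each probe set has its own affinity, so tests compared arrays and not genes, and the order of the levels below is one of deposited values and not of transcript abundance. All 74 members had a mean over the 8 arrays above the median of all probe sets. Their means ran from 6.65 for MRPS31, a small-subunit protein without a bacterial counterpart, to 11.09 for MRPS21, the counterpart of bacterial S21, and their median was 8.79. Over all probe sets the median was 6.45. The other members with the highest means were MRPL51 at 10.77, MRPS30 at 10.60 and MRPL9 at 10.43, and the other members with the lowest were MRPL41 at 6.88, MRPL33 at 6.89 and MRPL52 at 7.24. The medians of the 8 arrays lay between 6.38 and 6.46. Of 12 T-lymphoblast markers the median level was 9.02. They ran from 6.08 for PTCRA, the pre-T-cell receptor chain, to 11.8 for CD3E, a part of the T-cell receptor complex, and CD2 lay at 6.50.

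The 74 members formed no treatment response that the test could call. With limma, 0 of 74 passed an adjusted p of 0.05 for OICR-9429 minus untreated, where 0% of all probe sets did. At an unadjusted p under 0.05 the count was again 0 of 74, against 0.490% of all probe sets. The mean over members was 8.76 ± 0.23 (SD, n = 4 arrays) in untreated and 8.77 ± 0.29 (SD, n = 4 arrays) in treated cells. The median difference over members was 0.015 on the log2 scale, with a range from -0.29 to 0.27, and over all probe sets it was 0.005. Of the members, 39 lay above 0 and 35 below, against 51.1% and 48.3% of all probe sets. In 0 of 74 members did the treated arrays all lie on one side of the untreated ones, a pattern that 0.737% of all probe sets showed.

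Same-numbered untreated and treated arrays resembled each other, so the difference was also fitted within numbers, with the number as a replicate block. With limma and that block, 0 of 74 members passed an adjusted p of 0.05 (0% of all probe sets), and 1 of 74 had an unadjusted p under 0.05, against 5.55% of all probe sets. The median SE over members was 0.10 with the block and 0.27 without it. With the block, the 95% interval of the difference stayed within 1.5-fold in either direction for 73 of 74 members (90.7% of all probe sets) and within 2-fold for all 74 (99.8%). The median half-width of that interval was 0.239 over members, 0.248 over probe sets above the median level and 0.265 over all probe sets. The member whose interval went past 1.5-fold was MRPL13, a large-subunit core protein, whose interval ran from -0.12 to 0.66 on the log2 scale. The intervals bound the differences at this exposure time, and they do not show that the cells were alike. In the plot of treated-minus-untreated differences with their intervals, the members straddle 0.

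**Figure D1:**
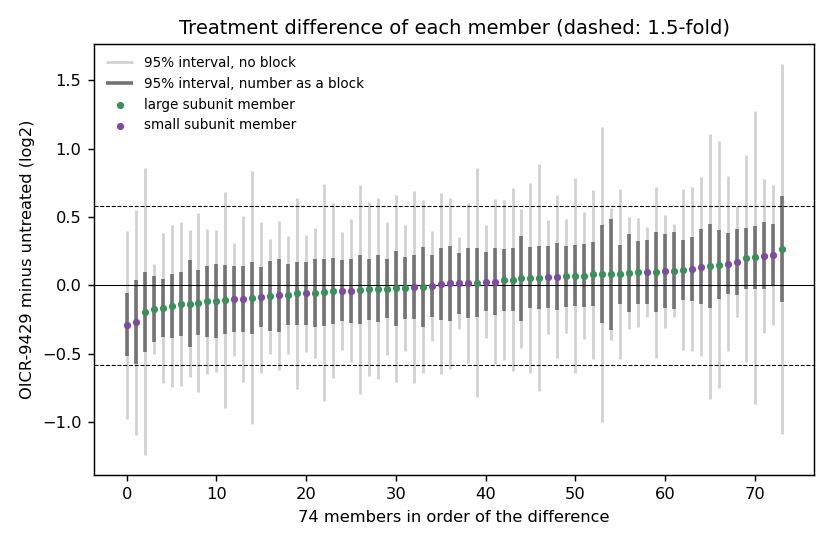
Difference OICR-9429 minus untreated for each of the 74 member probe sets (log2 scale), with the 95% interval from limma with the replicate number as a block. Differences run from -0.29 to 0.27, and the interval of 73 of 74 members lies within 1.5-fold of no difference.

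MRPS11, a small-subunit platform protein, was the member with the unadjusted block p under 0.05. In untreated cells its values were 9.41, 8.29, 9.07 and 8.96 for numbers 1 to 4, and in treated cells 9.28, 8.02, 8.63 and 8.65. Each treated array lay below the untreated array of its number, while the groups as wholes overlapped. The difference was -0.29 ± 0.31 (SE) without the block and -0.29 ± 0.10 (SE) with it, and limma's adjusted p with the block was 0.841. MRPS12, the counterpart of bacterial S12 at the decoding centre, read 8.03, 7.31, 7.69 and 8.37 untreated and 8.06, 6.60, 7.44 and 8.22 treated. Most of its difference of -0.27 ± 0.37 (SE) came from number 2, where the treated array was 0.71 lower, and at number 1 the treated array was higher by 0.03. MRPS31 read 6.56, 6.90, 6.53 and 6.17 untreated and 6.94, 7.13, 6.69 and 6.28 treated, higher in each pair, with a difference of 0.22 ± 0.23 (SE). Neither MRPS12 nor MRPS31 passed the test, and for both the groups overlapped.

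The other members with the smallest p-values in each direction behaved alike, with differences between -0.17 and 0.22. MRPS28, MRPL32, MRPS33, MRPL44 and MRPS35 lay above 0 with log2 differences of 0.22, 0.20, 0.17, 0.11 and 0.10. MRPL41, MRPL34, MRPL11 and MRPL57 lay below 0 with log2 differences of -0.17, -0.17, -0.15 and -0.13. All had an adjusted p of 1 with limma. All 4 pairs pointed one way in 10 of 74 members, against 12.6% of all probe sets. Of these, MRPL1, MRPL14, MRPL32, MRPS23 and MRPS31 were higher in every treated array, and MRPL11, MRPL34, MRPL41, MRPL58 and MRPS11 were lower.

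The within-number differences did not repeat from pair to pair. At number 1 the median over members was 0.075, with 53 of 74 above 0 (45.4% of all probe sets) and 19 below (52.5%). At number 2 it was -0.06, with 28 above 0 (50.9%) and 44 below (47.6%). Numbers 3 and 4 had medians of 0 and 0.005, with 36 (49.3%) and 37 (51.3%) members above 0. The members thus leaned up in the first pair and down in the second, and in the remaining pairs they were split. The plot of the differences pair by pair shows these shifts beside the scatter of single members.

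**Figure D2:**
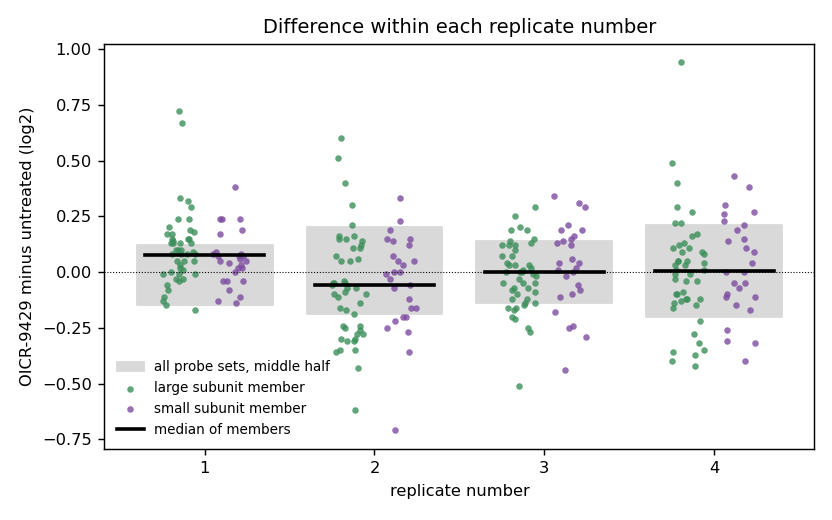
Treated minus untreated log2 value of each member within each replicate number, large and small subunit apart. The medians over members are 0.075, -0.06, 0 and 0.005 for numbers 1 to 4.

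The replicate number separated the members far more than the compound did. Over members, the median share of a probe set's variance held by number was 94.0%, by treatment 1.65% and by the rest 4.37%, and over all probe sets 81.3%, 2.51% and 12.1%. All members lie above the median level, and over all probe sets above it the share of number was 92.1%. The range between the 4 number means had a median of 0.92 over members, 0.835 over probe sets above the median level and 0.635 over all probe sets. Each member's mean absolute treated-minus-untreated difference within numbers had a median of 0.145 over members. A range of 4 means and a mean of absolute differences are unlike measures, so their sizes are not directly comparable. The mean over members was 9.05, 8.50, 8.81 and 8.68 in untreated arrays 1 to 4 and 9.14, 8.44, 8.80 and 8.69 in treated arrays 1 to 4. Both arrays of number 1 were the highest and both arrays of number 2 the lowest, while over all probe sets the number means were 6.54, 6.57, 6.55 and 6.50.

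**Figure D3:**
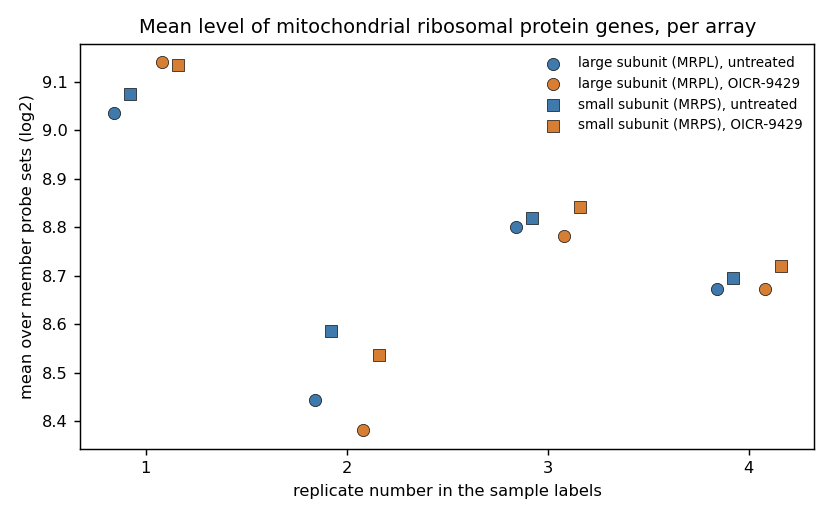
Mean log2 level over members in each of the 8 arrays, for the large and the small subunit, by replicate number and treatment. Untreated and treated arrays of a number lie close together, with number 1 highest (9.05 and 9.14 over all members) and number 2 lowest (8.50 and 8.44).

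Number was tested in a limma model with number and treatment. Any difference between numbers passed an adjusted p of 0.05 in 60 of 74 members, against 50.3% of all probe sets. These were 39 of 47 large-subunit and 21 of 27 small-subunit members, and 38 of 45 members listed with a bacterial counterpart and 22 of 29 others. All members lie above the median level, where number held a larger share of the variance than over all probe sets. The share of those brighter probe sets that passed is not given here, so 50.3% is not a background matched for level. With both arrays of number 4 left out, 32 of 74 members passed, and the share of all probe sets in that fit is not given here. Each number has 2 arrays that differ in treatment, so these p-values rest on how much the treated-minus-untreated difference varies, and they do not measure how much separate cultures vary.

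Promoters are shown for 6 members at the extremes of the number differences described in the next paragraphs, to let the sequence be read beside the values. RefSeq promoter sequences (GRCh38.p14) matched 66 of 74 members. Each line gives the 250 bases before the annotated start, 5′ to 3′ on the gene's strand, and capitals mark matches on either strand to the NRF1 motif, the ETS motif CCGGAAG, the YY1 motif AAGATGG, the E-box CACGTG and the SP1 motif GGGCGG. MRPL1 and MRPL42 were lower at number 4, MRPL54 and MRPL55 higher at number 4, and MRPL4 and MRPL49 lower at number 2. They lie at chr4:77862580-77862829 on the plus strand (MRPL1), chr12:93467264-93467513 plus (MRPL42), chr19:3762432-3762681 plus (MRPL54), chr1:228109300-228109549 minus (MRPL55), chr19:10251701-10251950 plus (MRPL4) and chr11:65121933-65122182 plus (MRPL49).
MRPL1: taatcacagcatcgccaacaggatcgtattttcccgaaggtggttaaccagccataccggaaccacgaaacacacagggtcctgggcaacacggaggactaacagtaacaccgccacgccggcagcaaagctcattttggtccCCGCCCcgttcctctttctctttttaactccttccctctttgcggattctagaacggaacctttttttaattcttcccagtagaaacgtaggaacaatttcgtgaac
MRPL42: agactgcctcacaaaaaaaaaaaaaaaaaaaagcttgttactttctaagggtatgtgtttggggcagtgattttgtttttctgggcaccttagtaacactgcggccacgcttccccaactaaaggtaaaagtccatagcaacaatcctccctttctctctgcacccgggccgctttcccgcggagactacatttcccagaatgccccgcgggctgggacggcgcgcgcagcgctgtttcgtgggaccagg
MRPL54: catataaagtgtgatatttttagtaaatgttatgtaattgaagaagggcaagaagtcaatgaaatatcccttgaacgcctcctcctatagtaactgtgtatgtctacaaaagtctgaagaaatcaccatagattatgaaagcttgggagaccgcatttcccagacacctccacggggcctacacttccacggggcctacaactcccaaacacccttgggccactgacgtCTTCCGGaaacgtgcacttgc
MRPL55: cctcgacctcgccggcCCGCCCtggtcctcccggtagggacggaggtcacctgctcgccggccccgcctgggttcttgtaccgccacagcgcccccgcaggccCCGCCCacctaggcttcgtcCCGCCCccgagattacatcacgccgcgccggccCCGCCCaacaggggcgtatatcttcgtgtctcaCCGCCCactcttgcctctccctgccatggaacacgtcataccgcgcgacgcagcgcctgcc
MRPL4: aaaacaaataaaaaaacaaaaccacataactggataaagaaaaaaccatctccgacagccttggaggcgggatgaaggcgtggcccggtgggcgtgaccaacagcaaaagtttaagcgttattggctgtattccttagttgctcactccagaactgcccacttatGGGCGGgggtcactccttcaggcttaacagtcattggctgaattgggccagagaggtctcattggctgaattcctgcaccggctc
MRPL49: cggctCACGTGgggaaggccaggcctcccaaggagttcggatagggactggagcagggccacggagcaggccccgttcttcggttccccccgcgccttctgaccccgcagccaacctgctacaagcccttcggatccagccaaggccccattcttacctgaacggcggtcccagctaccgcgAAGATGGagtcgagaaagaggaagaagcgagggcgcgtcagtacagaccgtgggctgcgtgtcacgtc
MRPL1 and MRPL42, both low at number 4, hold 1 and 0 of these matches, and MRPL54 and MRPL55, both high there, hold 1 ETS match and 5 SP1 matches. MRPL4 holds 1 SP1 match, and MRPL49 holds an E-box and a YY1 match.

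Over all 66 member promoters, the ETS motif was found in 22, or 33.3%, against 11.8% of 15843 protein-coding promoters of the same length. The YY1 motif was in 10.6% (3.35% of all) and the NRF1 motif in 10.6% (7.65%). The E-box was in 7.58% (7.84%), the SP1 motif in 54.5% (56.0%), the TATA motif TATAAA in 3.03% (9.23%) and CCAAT in 28.8% (34.5%). Matches were counted on both strands, overlapping matches of different motifs each counted, and a match is a description of letters. The ETS motif was present in 4 of 14 members higher at number 4, in 8 of 18 lower and in 10 of 34 not called.

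Number 1 stood above the other numbers across both subunits. Against the mean of the other numbers, 35 of 74 members were higher at number 1 (10.6% of all probe sets) and 0 were lower (6.14%). The median difference over members was 0.41 on the log2 scale, against -0.03 over all probe sets and 0.10 over those above the median level. Of the members, 68 lay above 0 (46.1% of all probe sets). Both arrays of number 1 exceeded the other 6 arrays in 37 members (9.12%) and lay under them in 0 (8.34%). Without the untreated array of number 1 the median difference was 0.44, with 71 members above 0. Without the treated one it was 0.39, with 66 above 0. With 1 array left at number 1, calls are not counted here. The count of 35 was 43 after median centring, 26 after quantile normalization and 26, with 1 lower, after centring on brighter probe sets. It was 52, with 1 lower, with probe sets above the median level alone, and 51 with a trended, robust variance. Shares of all probe sets under these settings are not given here.

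MRPL58, also known as ICT1, is a peptidyl-tRNA hydrolase that rescues stalled mitochondrial ribosomes and is itself built into the large subunit. Its untreated values were 8.50, 7.56, 7.57 and 7.88 for numbers 1 to 4, and its treated values 8.49, 7.49, 7.50 and 7.53. Both arrays of number 1 lay above the other 6, and the difference at number 1 was 0.91 ± 0.12 (SE, limma's adjusted p = 0.00378). MRPL58 and MRPL46 were the 2 of 74 members higher at number 1 than at number 3 (0.625% of all probe sets). MRPL46, named because of that small count, read 9.96, 9.13, 9.14 and 9.18 untreated and 10.05, 8.97, 9.13 and 9.15 treated, again with number 1 alone on top. MRPL21, a large-subunit core protein, was higher at number 1 by 0.91 and lower at number 2 (difference -0.89).

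Number 2 stood below the others. Here 42 of 74 members were lower (11.6% of all probe sets) and 3 were higher (15.4%), namely MRPL32, MRPL42 and MRPS31. The median difference over members was -0.42, against -0.01 over all probe sets. The lower members were 28 of 47 large-subunit and 14 of 27 small-subunit genes, and both arrays of number 2 lay under the other 6 in 36 members (10.4%) and over them in 0 (12.2%). Only 14 members lay above 0 (48.7%). Without both arrays of number 4, 40 members were lower at number 2 and 0 were higher, so the 3 higher calls were lost in that fit, which also has fewer arrays. Without both arrays of number 1, 27 were lower and 5 higher. Shares of all probe sets in these refits are not given here. Without the treated array of number 2 the median difference was -0.34, with 19 members above 0. Without the untreated one it was -0.45, with 9 above 0. Directly against number 1, 46 members were lower at number 2 (8.43% of all probe sets) and 0 were higher (6.51%).

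MRPL4, which lines the exit tunnel, read 9.09, 7.14, 8.65 and 8.55 untreated and 9.08, 7.25, 8.14 and 8.19 treated for numbers 1 to 4. Number 2 lay well below every other array, with a difference of -1.42 ± 0.15 (SE, limma's adjusted p = 0.00131). MRPL49 read 8.95, 7.30, 8.81 and 9.24 untreated and 9.05, 7.90, 8.79 and 9.12 treated. Its difference at number 2 was -1.39 ± 0.15 (SE, limma's adjusted p = 0.00144), while number 4 was higher by 0.71. MRPL23, a protein at the mouth of the exit tunnel, read 8.11, 6.85, 8.07 and 8.14 untreated and 8.35, 6.61, 7.93 and 7.92 treated. Its difference at number 2 was -1.36 ± 0.13 (SE, limma's adjusted p = 0.00125), and the other 6 arrays lay between 7.92 and 8.35.

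The 3 members higher at number 2 were all among the members lower at number 4. For MRPL42 the difference at number 2 was 0.44 (limma's adjusted p = 0.0332), and without both arrays of number 4 it was -0.005. The untreated values of MRPL42 were 10.09, 10.07, 10.03 and 8.56, and the treated values 10.06, 10.12, 10.22 and 8.96, so that numbers 1 to 3 lay together and only number 4 stood apart. MRPL32, whose precursor is matured by the m-AAA protease, was higher at number 2 by 0.45 and lower at number 4 (difference -1.10). MRPS31 was higher at number 2 by 0.49 and lower at number 4 (difference -0.57). Among numbers 1 to 3 alone, MRPS31 still read highest at number 2 in both groups.

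Number 3 held no called member in this fit. With limma 0 of 74 were higher (1.18% of all probe sets) and 0 lower (0.200%) at an adjusted p of 0.05, and the median difference was 0.079, with 46 members above 0 (47.4%). Both arrays of number 3 lay over the other 6 in 1 member (3.19%), MRPL16, and under them in 0 (2.94%). Members were called under several alternatives: 10 higher and 1 lower without both arrays of number 1, 4 and 8 without both arrays of number 2, 5 and 3 with probe sets above the median level alone, and 6 and 2 with a trended, robust variance. Shares of all probe sets under these alternatives are not given here, so these counts cannot be set against a background. Between numbers 1 and 3 few members passed the test, with 2 higher at number 1 (0.625% of all probe sets) and 0 lower (1.16%). The means over members were 9.09 at number 1 and 8.81 at number 3. Number 2 was below number 3 in 11 members (2.42%) and above it in 0 (1.98%). The members with the largest differences at number 3 were MRPL19 at 0.54, MRPL42 at 0.48 and MRPL13 at 0.46, and those with the smallest were MRPL54 at -0.87, MRPS24 at -0.40 and MRPL58 at -0.38.

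Number 4 split the members. Against the other numbers, 17 of 74 were higher (26.3% of all probe sets) and 22 were lower (25.5%), shares close to the background. Against number 1, 5 members were higher at number 4 (21.3% of all probe sets) and 39 lower (23.2%). The counts were 10 and 30 without both arrays of number 2, and 21 and 16, with a median difference of 0.079, without both arrays of number 1. Shares of all probe sets in these refits are not given here. Without the untreated array of number 4 the median difference was -0.057. Both arrays of number 4 lay over the other 6 in 13 members (25.4%) and under them in 21 (24.2%). The median difference was -0.078, against 0.083 over all probe sets and -0.15 over those above the median level, and 32 members lay above 0 (56.1%). That sign depended on the scaling: after quantile normalization the median was 0.13, with 23 members higher and 16 lower, and after centring each array on the brighter probe sets it was 0.17, with 26 and 14. The second of these scalings moved the median of all probe sets to 0.34 at number 4 and to -0.17 at number 1. Relative to all probe sets, the members lay at -0.16 at number 4 under that centring and as deposited, and at 0.057 after quantile normalization.

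MRPL1, MRPL13 and MRPL42 had the lowest differences at number 4. MRPL1, the protein of the mobile L1 stalk through which spent tRNA leaves, read 9.0, 8.24, 8.43 and 6.96 untreated and 9.03, 8.54, 8.63 and 7.25 treated. Both arrays of number 4 lay below all others, and the difference was -1.54 ± 0.11 (SE, limma's adjusted p = 4.69e-05). MRPL13 read 8.22, 7.28, 7.68 and 5.40 untreated and 8.36, 7.39, 7.56 and 6.34 treated, with a difference of -1.88 ± 0.19 (SE, limma's adjusted p = 0.000163). Its arrays of number 4 were lowest and also the furthest apart of its pairs, by 0.94. MRPL42, which has no bacterial counterpart, lay at -1.34 ± 0.13 (SE, limma's adjusted p = 0.000105). MRPL50, MRPL19, MRPL32 and MRPL3 were also lower at number 4, with differences of -1.21, -1.16, -1.10 and -0.90.

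MRPL54, MRPL10 and MRPL55 had the highest differences at number 4. MRPL54, which has no bacterial counterpart, read 7.74, 7.39, 7.20 and 8.96 untreated and 8.41, 7.14, 7.23 and 8.84 treated. Number 4 lay above all other arrays, and the difference was 1.38 ± 0.18 (SE, limma's adjusted p = 0.000447). MRPL10, the stalk protein on which copies of MRPL12 are mounted, read 8.08, 8.03, 8.17 and 9.08 untreated and 8.26, 7.98, 8.21 and 9.19 treated. Its difference was 1.01 ± 0.11 (SE, limma's adjusted p = 0.000216), with the other 6 arrays between 7.98 and 8.26. MRPL55 read 7.84, 7.43, 7.84 and 8.63 untreated and 7.97, 7.26, 7.79 and 8.49 treated, a difference of 0.87 ± 0.12 (SE). MRPL2, a core protein near the peptidyl transferase centre, was higher by 0.86. The heat map of all members shows the split at number 4 beside the mostly higher values at number 1 and mostly lower values at number 2.

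**Figure D4:**
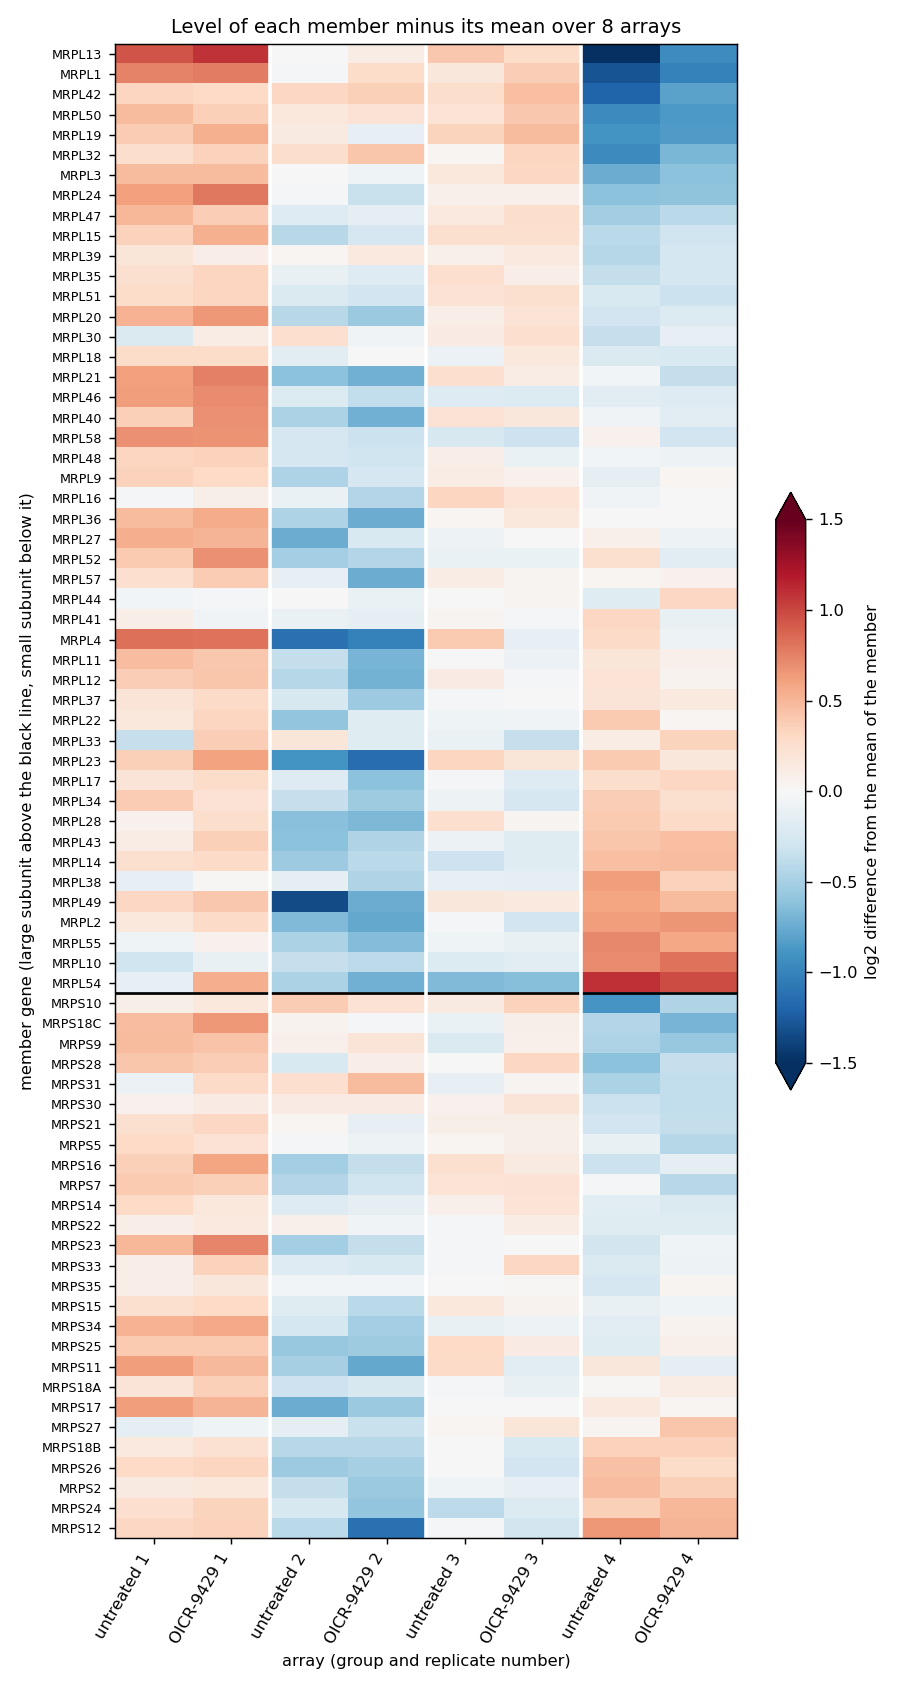
Log2 value of each of the 74 members in each array, minus the member's mean over the 8 arrays, with arrays ordered by replicate number. Number 1 is above the mean for most members and number 2 below it, and at number 4 members differ in sign, from -1.88 for MRPL13 to 1.38 for MRPL54 against the other numbers.

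Ranked by their number means, the members fell mainly into 4 orders. The order 1, 3, 2, 4 from high to low held for 18 members (5.92% of all probe sets), the order 1, 3, 4, 2 for 15 (2.83%), the order 4, 1, 3, 2 for 15 (8.53%), and the order 1, 4, 3, 2 for 12 (3.38%). Number 1 was highest in 47 members (19.1%) and number 2 lowest in 46 (24.7%). Number 4 was lowest in 26 (33.6%) and highest in 20 (43.5%). Neighbours in these orders often did not differ by the test. Between numbers 2 and 4, 14 members were higher at 2 (24.2%) and 29 at 4 (23.6%), and number 3 was above number 4 in 19 members (21.7%) and below it in 13 (3866 of 21448 probe sets).

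Large and small subunit moved together from number to number. The large-subunit means were 9.09, 8.41, 8.79 and 8.67 for numbers 1 to 4, and the small-subunit means 9.11, 8.56, 8.83 and 8.71, the same order. Small minus large was 0.039, 0.14, 0.017 and 0.023 in untreated arrays 1 to 4 and -0.0056, 0.16, 0.060 and 0.047 in treated ones. Its zero point is set by probe affinity, so only its shift between arrays can be read. At number 2 it was above the other numbers in both treatments, by 0.12 over both together. Its mean was 0.055 ± 0.058 (SD, n = 4) untreated and 0.065 ± 0.068 (SD, n = 4) treated, a shift of 0.0092 that is smaller than the spread. MRPS30 and MRPS18A carry small-subunit names but sit in the large subunit of the mammalian structure, and with both moved there the shift at number 2 was 0.087. Members listed with a bacterial counterpart had median differences of 0.44 at number 1 and -0.49 at number 2, and the other members 0.37 and -0.39.

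MRPL10 and MRPL12 form the stalk that recruits translation factors, and MRPL11 sits at its base, but their values did not follow a single pattern. MRPL12, which has also been described as binding the mitochondrial RNA polymerase, read 9.59, 8.79, 9.35 and 9.43 untreated and 9.64, 8.51, 9.19 and 9.28 treated. It was higher at number 1 by 0.52 and lower at number 2 (difference -0.76), as was MRPL11 (0.58 and -0.70), and neither passed the test at number 4. For MRPL10 number 4 stood out, and its difference at number 1 was -0.27, which did not pass the test. At the decoding centre, MRPS12 was lower at number 2 (difference -1.01) and higher at number 4 by 0.77.

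MRPS18A, MRPS18B and MRPS18C are 3 mitochondrial relatives of bacterial S18 that take separate places in the ribosome. MRPS18A and MRPS18B were lower at number 2, with differences of -0.37 and -0.56, and MRPS18B was higher at number 4 by 0.46. MRPS18C differed from both, higher at number 1 by 0.74 and lower at number 4 (difference -0.76), with 0.022 at number 2. MRPS18C values were 8.20, 7.79, 7.64 and 7.30 untreated and 8.39, 7.72, 7.83 and 7.04 treated. MRPS30 was lower at number 4 (difference -0.46).

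A group of 14 members passed no test of any difference between numbers: MRPL16, MRPL18, MRPL22, MRPL30, MRPL33, MRPL41, MRPL44, MRPL57, MRPS14, MRPS22, MRPS27, MRPS33, MRPS35 and MRPS5. MRPL44, which has a ribonuclease III-like fold, varied least with number. It read 8.75, 8.79, 8.80 and 8.61 untreated and 8.76, 8.69, 8.83 and 9.10 treated, and limma's adjusted p for any difference was 0.913. MRPL41 ran from 6.74 to 7.19 and MRPS35 from 9.37 to 9.80. MRPS27, a pentatricopeptide repeat protein, ran from 8.80 to 9.55 and passed at no single number.

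Genes that work with the mitochondrial ribosome were summarised from fixed lists. None of the lists had a member called for OICR-9429. At number 1, where 10.6% of all probe sets were higher and 6.14% lower, 2 of 4 subunit proteins with other symbols, 7 of 12 mitochondrial translation factors, 9 of 17 assembly factors, 5 of 15 mitochondrial aminoacyl-tRNA synthetases and 5 of 9 genes of mitochondrial transcription were higher and 0 lower. Of 76 nuclear-encoded subunits of oxidative phosphorylation, the complexes that take up the ribosome's products, 28 were higher at number 1 and 1 lower, and 1 was higher and 33 lower at number 2. After median centring, 32 oxidative phosphorylation subunits, 10 assembly factors and 8 translation factors were higher at number 1, and the counts of the other lists did not change. Most of the counts higher at number 1 were smaller under the remaining scalings. After quantile normalization 15 oxidative phosphorylation subunits, 6 assembly factors, 5 translation factors, 5 synthetases, 3 transcription genes and 0 of the other subunit proteins were higher, and after centring on brighter probe sets 13, 4, 5, 5, 3 and 1. Of the oxidative phosphorylation subunits 1 and 3 were then lower, and of each other list at most 1. Centring on brighter probe sets also moved the median of all probe sets at number 1 from -0.03 to -0.17.

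At number 2, where 15.4% of all probe sets were higher and 11.6% lower, the translation factors had 3 higher and 1 lower, with a list median of 0.18. The assembly factors had 1 higher and 6 lower, the synthetases 0 and 1, the transcription genes 2 and 2, and the subunit proteins with other symbols 0 and 2. At number 4, with 26.3% of all probe sets higher and 25.5% lower, 8 of 12 translation factors were lower and 1 higher, with a median of -0.99, and the transcription genes had 0 higher and 5 lower. The synthetases had 3 higher and 7 lower, the subunit proteins with other symbols 0 and 1, and the oxidative phosphorylation subunits 22 and 11, which became 28 and 7 after quantile normalization and 39 and 5 after centring on brighter probe sets. The assembly factors had 2 higher and 4 lower at number 4 as deposited, but 7 and 3 after quantile normalization and 8 and 3 after centring on brighter probe sets. Cytosolic ribosomal proteins, which build the other ribosome of the cell, had 1 of 46 higher and 0 lower at number 1, and 0 higher and 3 lower at number 2. At number 4 they had 14 higher and 4 lower, against 9 and 7 after quantile normalization and 28 and 0 after centring on brighter probe sets. That centring moved the median of all probe sets at number 4 from 0.083 to 0.34. The shares of all probe sets given above are those of the deposited values, so counts under other scalings cannot be set against them.

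Markers of other kinds of cell were read beside the number differences, since in bulk RNA a change in the mix of cells and a change in the RNA of each cell cannot be told apart. Over 27 measured markers of B, myeloid, erythroid, NK, and fibroblast or epithelial cells, 1 was higher and 4 lower at number 1 (1 and 9 after centring on brighter probe sets), 0 higher and 3 lower at number 2, and 11 higher and 2 lower at number 4, which became 12 and 2 after quantile normalization and 19 and 0 after centring on brighter probe sets. Over all probe sets, as deposited, the shares higher and lower were 10.6% and 6.14% at number 1, 15.4% and 11.6% at number 2, and 26.3% and 25.5% at number 4. Centring on brighter probe sets moved the median of all probe sets at number 4 from 0.083 to 0.34. Counts under other scalings therefore have no matching share here. The median level of the 27 markers was 5.99, under the 6.45 of all probe sets. Over all probe sets the difference at number 4 correlated with the mean level at Pearson's r of -0.232. The shares over all probe sets are thus not matched to the markers for level. The mean level of the 27 markers was 5.85, 5.93, 5.87 and 6.20 for numbers 1 to 4. It ran from 5.86 to 6.25 over untreated and from 5.82 to 6.16 over treated arrays. Of 12 T-lymphoblast markers, 1 was higher and 2 lower at number 1, 0 and 3 at number 2, and 4 and 1 at number 4, which became 6 and 0 after quantile normalization and 8 and 0 after centring on brighter probe sets. The part of these markers in the members' differences was not tested. A log2 array value has no zero, so no marker can be called absent.

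Gene length was set beside the number differences as a property that the symbol rule did not use. From first to last base in RefSeq (GRCh38.p14), the members spanned 0.677 kb for MRPL41 to 111.5 kb for MRPS28. Across the 74 members the difference at number 2 correlated with log10 of the span at Pearson's r of 0.378 and Spearman's rho of 0.477, and the difference at number 4 at -0.404 and -0.406. Over the 9286 probe sets above the median level with a span, the values were 0.451 and 0.476 at number 2 and -0.403 and -0.417 at number 4. The relation was thus about as strong in bright probe sets at large. These points are genes measured on the same 8 arrays and are not independent replicates. The members lower at number 2 had a median span of 5.35 kb, and those not called 14.4 kb. At number 4 the members higher had a median of 5.19 kb and the members lower 15.3 kb.

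**Figure D5:**
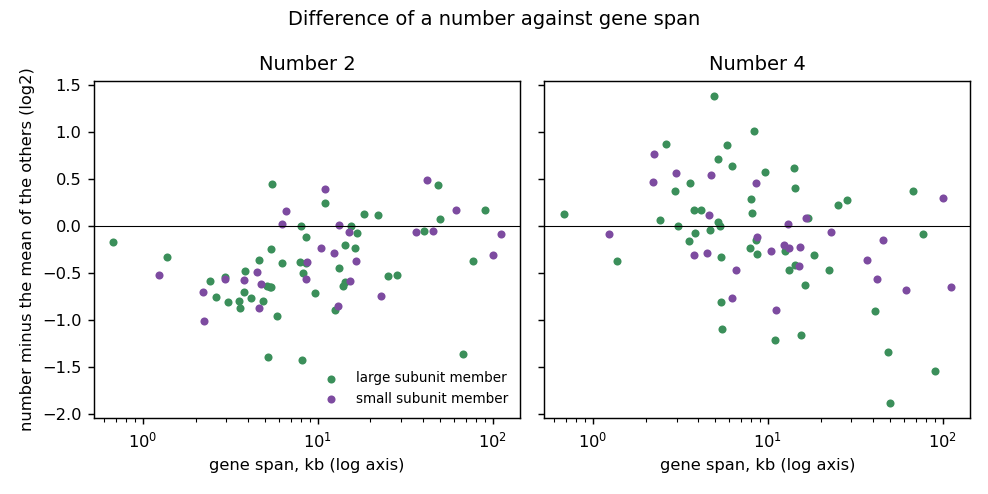
Log2 difference of each of the 74 members at number 2 (left) and number 4 (right) against the other numbers, by gene span in kb on a log axis. Longer genes tend to lie higher at number 2 (r = 0.378) and lower at number 4 (r = -0.404).

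Several members share a start region with a gene on the opposite strand. Within 1000 bases of the start, 18 of 66 members (27.3%) had a divergent protein-coding neighbour, against 10.3% of 15843 genes. MRPL46 and MRPS11 are neighbours of this kind, with 320 bases between their starts, and both were higher at number 1 (0.89 and 0.74) and lower at number 2 (-0.39 and -0.85). MRPL49 starts 49 bases from FAU, a gene for a cytosolic ribosomal protein fusion, whose differences were -0.74 at number 2 and 0.73 at number 4, beside -1.39 and 0.71 for MRPL49. MRPS12 starts 181 bases from SARS2, a mitochondrial seryl-tRNA synthetase, and the differences at number 2 were -1.01 and -0.24 and at number 4 0.77 and 0.68. In contrast, MRPL32 and its neighbour PSMA2 lay at -1.10 and -0.057 at number 4, and MRPS27 and PTCD2 at 0.31 and -2.06. These pairs were picked after their values were seen.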

How the data were processed

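Expression was measured with arrays on total RNA of 8 samples, 4 untreated and 4 given OICR-9429. The values are log2 expression per probe set, as deposited, and the authors made them with Transcriptome Analysis Console and RMA, which subtracts background, normalizes arrays to each other and combines probes, per the submitters' processing notes. The genome build behind the probe sets and tool versions are not stated in the sources used here. Names came from the platform annotation, in which 17709 probe sets had 1 symbol and 3739 had none. Scanner files were not used here.

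The treatment was tested with limma 3.58.1 (R 4.3.3) over all 21448 probe sets and 8 arrays, and numbers in a limma model with number and treatment, with Benjamini-Hochberg adjustment over all probe sets, two-sided tests and a threshold of 0.05. The replicate numbers come from the titles. Same-numbered arrays deviated from their group means together, at correlations of 0.696, 0.748, 0.566 and 0.865 across probe sets, all over the limit of 0.1, so a replicate block was fitted as well. Members, lists and tests were chosen with earlier results of these data known. Named members were those with the smallest p or the largest and smallest differences in each comparison, the highest and lowest levels, and a few fixed for their known roles. Of the latter, MRPS36 and MRPL45 were not analysed here. Both fits were tested on simulated data. The number of arrays limits the precision.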

Additional observations from a re-analysis of the deposited data

Results flagged for a closer look

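The named members and 4 summary values (the means of all, of large-subunit and of small-subunit members, and small minus large) were looked at in both groups of 4 arrays. In 10 of these 88 sets of 4 values, all of them of named members, a single array stood far from the other 3. Chance marks about 4.4 of 88, or 1 in 20, but the sets share arrays and many named members were picked for large differences between numbers, so the count of 10 cannot be read against chance. At number 4, MRPL42 was low in both groups, 8.56 untreated (others 10.03 to 10.09) and 8.96 treated (others 10.06 to 10.22), and so was MRPS30, 10.28 untreated (others 10.67 to 10.73) and 10.23 treated (others 10.72 to 10.79). Also low in the treated array of number 4 were MRPL32 at 7.79 (others 8.80 to 8.89) and MRPL50 at 7.14 (others 8.22 to 8.40). High in the untreated array of number 4 were MRPL10 at 9.08 (others 8.03 to 8.17) and MRPL38 at 9.26 (others 8.50 to 8.52). MRPL23 was low in the untreated array of number 2 at 6.85 (others 8.07 to 8.14), and MRPL58 was high in the treated array of number 1 at 8.49 (others 7.49 to 7.53). The 10 values fall on numbers 1, 2 and 4 and on both groups.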

How the results depend on the processing

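The count of members called for OICR-9429 was 0 under every alternative run: 3 other scalings, a filter on low values, another variance model, the replicate block, and each array or number left out. The replicate block gave 0 of 74, so it changed no call. The median treated-minus-untreated difference ran from -0.11 to 0.10 over the arrays left out, in fits without the block. Leaving out a single array there unbalances the numbers, so differences between numbers enter the treated-minus-untreated difference. With the block and each number left out in turn, the median ran from -0.015 to 0.033. In both sets of refits its sign changed with what was left out. Any difference between numbers was called in 32 to 58 members over the numbers left out. Shares of all probe sets in these refits are not given here.

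At number 1 the median over members was 0.45 after median centring, 0.32 after quantile normalization and 0.28 after centring on brighter probe sets, and 0.32 to 0.51 over the samples left out. At number 2 it was -0.50 to -0.34 over the samples left out. At number 3 it was 0.063, 0.023 and 0.031 under those scalings and -0.05 to 0.26 over the samples left out. At number 4 it was 0.13 after quantile normalization, 0.17 after centring on brighter probe sets, and -0.29 to 0.079 over the samples left out. Small minus large at number 2 was 0.087 with subunits assigned by structure and 0.11 to 0.13 over the samples left out. Over the samples left out it was -0.053 to 0.013 at number 3 and -0.0589 to 0.0071 at number 4. Each number is compared with the mean of the numbers that remain, so leaving out a whole number changes what it is compared with. Any other cause of these shifts was not tested. Of the values computed for named members, 1294 kept their call or lack of one, 78 lost the call and 25 gained it. Direction was compared only for differences called in the main fit, so a change of sign in an uncalled value was not counted. Among the called differences 1 reversed: MRPL42 at number 2 ran from -0.005 without number 4 to 0.68 without number 3. With 2 arrays per number and signals on a log2 scale without background readings, small differences and low levels could not be resolved.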
